A study of Pseudotsuga menziesii with 83 samples.

Results

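Mature Douglas-fir needles (Pseudotsuga menziesii) collected on 10 March were compared with needles collected from the same trees on 7 April, 28 days later. The comparison used 22 of the 83 RNA-seq libraries of the series, chosen by collection date and by tree, which were 1 library per tree and date for the 11 trees with both dates. The trees came from 3 seed sources named ORSI (Oregon Siskiyou, 4 trees), WACA (Washington Cascades, 3 trees) and WACS (Washington Coast, 4 trees), and they belonged to 6 families. All grew in 1 common garden in southern Oregon without treatment, and needles of the previous year's cohort, not new shoots, were taken around midday. All 11 trees were recorded as before budbreak in March. In April trees 44, 46 and 89, all of ORSI, were recorded as past it, and the other 8, among them ORSI tree 90, were not.

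Evergreen conifer needles survive winter in a cold-hardened state with reduced photosynthesis. In spring they lose freezing tolerance and recover photosynthetic capacity while the buds nearby prepare to flush. The needles studied here had formed in the year before, so their transcript levels describe an existing organ in this period and not the growth of a new one. Budbreak, the opening of the buds, is the visible event of spring and comes earlier in some seed sources than in others when they are grown together.

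The count table had 90662 features, of which 83287 had a count in at least 1 of the 22 libraries and 30752 passed a filter of a median count over 5. The files identify a feature by a number and pair it with no gene name, sequence or function, so the labelled tissue could not be checked against marker genes, and features are described by their levels. The counts per library summed to 11293394 to 11300327, so the totals were nearly equal. The paper lists unequal read numbers for these trees and dates, so the totals do not describe sequencing depth. The TMM factors, which scale a total by the make-up of its library, ran from 0.808 to 1.18. Features with 1 count or more numbered 44380 to 54639 (median 51924) in March and 48244 to 55555 (median 51627) in April, and the dates overlapped. The number was higher in April in 7 of 11 trees, by 438 ± 3035 on average (SD of the difference, n = 11, exact two-sided sign permutation p = 0.696). Without tree 90 the difference turned to -298, and it was -320 in the 6 trees from fc1022 to fc1025 and 1347 in the other 5. The 50 most abundant features took 19.3% ± 2.75 of the counts in March and 21.4% ± 3.58 in April (SD, n = 11). That share was higher in April in 8 of 11 trees, by 2.03 ± 3.64 percentage points (exact two-sided sign permutation p = 0.0957), and the smallest p that 11 trees allow is 0.000977. The p was 0.0273 without tree 05, 0.043 without tree 12 and 0.0439 for the 10 most abundant features. Leaving out any other tree gave an exact permutation p of 0.0938 (without tree 68) to 0.191 (without tree 89). For the 200 most abundant the difference was 0.549 points, higher in 6 of 11 trees (exact permutation p = 0.628). It was 1.14 points in the 6 trees from fc1022 to fc1025 (exact permutation p = 0.469) and 3.11 in the 5 trees of the opposite order (exact permutation p = 0.125).

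Many transcripts moved in these mature needles between the dates, in both directions in nearly equal number. With the tree as a block, 3706 of 30752 features (12.1%) changed at a false discovery rate (FDR, the adjusted p of edgeR's quasi-likelihood test after Benjamini and Hochberg) of 0.01, of which 1871 (6.08%) rose and 1835 (5.97%) fell. Most changes were modest. The rises had a median of 0.74 on the log2 scale (quartiles 0.52 and 1.13) and the falls a median of -0.70 (quartiles -1.04 and -0.50). A log2 change of 1 or more, which is a doubling or more, was reached by 580 rises and 493 falls. A log2 change of 2 or more was reached by 84 rises and 51 falls, and one of 3 or more by 15 rises and 8 falls. The median over all tested features was -0.0020.

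**Figure D1:**
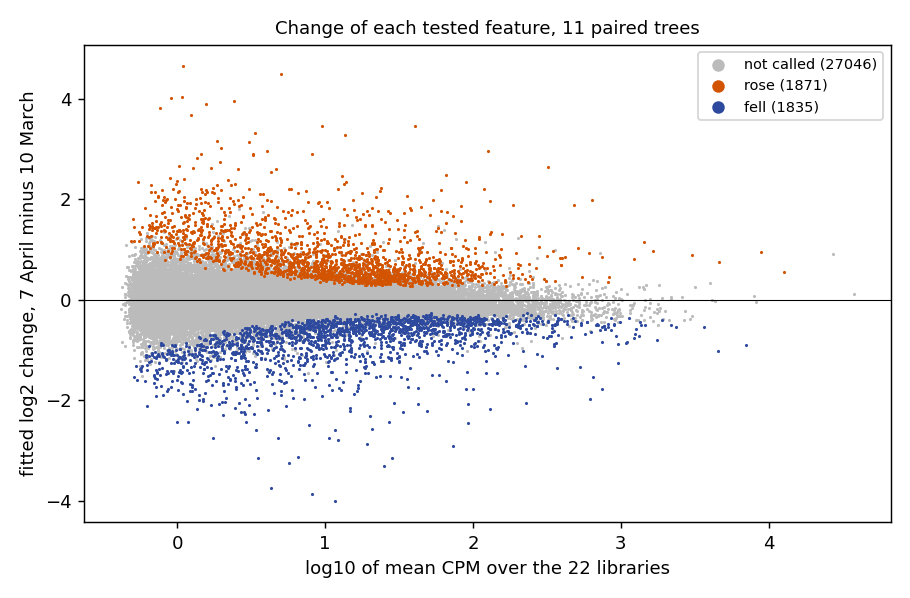
Fitted log2 change from 10 March to 7 April for each of the 30752 tested features (vertical axis) against the log10 of its mean CPM, scaled counts per 1000000, over the 22 libraries (horizontal axis). Orange points are the 1871 rises, blue points the 1835 falls and grey points the features not called, and small changes were called mainly among abundant features.

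The called changes were smaller in abundant features. Small changes are harder to call at low counts, so this does not show that abundant features changed less. In the first of 4 equal bins of mean count (4.73 to 19 per library) 5.86% were called, 258 up and 193 down, with log2 changes of median size 1.31. In the bin with the highest mean counts (222 and above) 18.6% were called, 636 up and 792 down, with a median size of 0.53. Falls outnumbered rises in the most abundant bin, and rises outnumbered falls in the other bins.

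Of the 3706 called features, 1958 moved the same way in all 11 trees, with 1009 higher and 949 lower in April, whereas 7.33% of all tested features had 1 sign in all trees. The called features were chosen by a test on these trees, so this difference in share is no support for a common direction. Over all tested features the trees together held more of the spread in levels than the date did, on more degrees of freedom. Complete separation, with every April library above or every April library below all March libraries, was seen in 117 features (0.38% of those tested), of which 84 rose and 33 fell. Over all tested features the tree held a median of 67.1% of the sum of squares of log2 CPM, the date 4.84% and the rest 21.3%, and their shares of the degrees of freedom were 47.6%, 4.76% and 47.6%. In the features called as rises the date held a median of 37.7% and the tree 47.7%, and in the falls 33.3% and 52.7%. These last values describe features that were chosen for their date difference.

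The features gene6412 and gene27539 stood out among the rises, each by the size of its change and by its test. For gene6412 the level was 0 to 0.809 CPM (median 0.33) in the 11 March libraries and 5.34 to 16.4 CPM (median 8.44) in April. The dates did not overlap, and the transcript was nearly undetected in March, with 0 to 9 counts per library. Its log2 change of 4.49 (standard error, s.e., 0.25, edgeR adjusted p = 5.53e-09) was the largest rise among called features that averaged 50 or more counts and had 1 sign in all trees. The feature reached that average through its April libraries alone, which held 58 to 208 counts each. Tree 10 had the smallest change, 2.55, and tree 90, whose March count was 0, the largest, 5.61. The rise was brief, as the median was 1.13 CPM in May and 0.266 CPM in June.

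The level of gene27539 was 11.4 to 44.7 CPM (median 29.3) in March and 70.0 to 458 CPM (median 206) in April, also without overlap. Its log2 change of 2.97 (s.e. 0.13) had the smallest adjusted p of all features, 2.53e-10 from edgeR. The change was 2.35 in tree 90 and 3.75 in tree 89, the lowest and highest of the 11 trees. Both belong to ORSI. In contrast with gene6412, this feature had a median of 203 CPM in May and was still at 86.3 CPM in June.

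Among the falls chosen by the same rule, gene23962 had the smallest adjusted p and gene31360 the largest change. For gene23962 the level was 29.0 to 102 CPM (median 32.4) in March and 4.64 to 16.1 CPM (median 6.26) in April, and the dates did not overlap. Its log2 change was -2.44 (s.e. 0.12, edgeR adjusted p = 1.85e-09), with -3.18 in tree 68 and -1.79 in tree 12 at the ends of the range. The median was back at 29.4 CPM in May and was 15.0 CPM in June.

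For gene31360 the level was 1.18 to 56.0 CPM (median 20.9) in March and 0.193 to 2.75 CPM (median 0.805) in April. All 11 trees fell, although tree 89 started so low, at 1.18 CPM, that the dates overlapped. Its log2 change was -4.0 (s.e. 0.36, edgeR adjusted p = 7.32e-07). The trees differed widely, from -6.23 in tree 46 to -1.41 in tree 89. In May and June the medians were 2.48 and 1.70 CPM, below that of March.

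**Figure D2:**
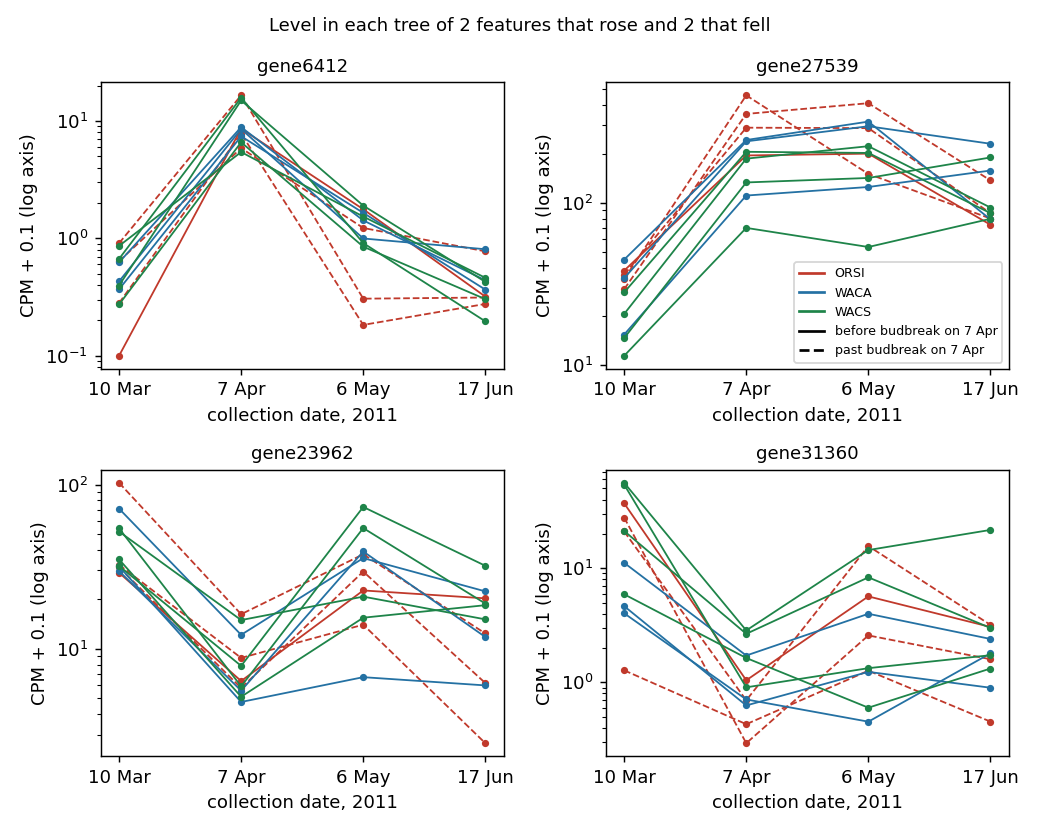
Level of gene6412 and gene27539, which rose, and of gene23962 and gene31360, which fell, in each of the 11 trees on 10 March, 7 April, 6 May and 17 June, as CPM plus 0.1 on a log axis. Each line is 1 tree, coloured by seed source and dashed for the 3 trees past budbreak on 7 April, and gene6412 is high on 7 April only.

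The 6 largest rises had fitted log2 changes of 2.64 to 4.49 and the 6 largest falls -4.0 to -3.14, among the 1490 called features that averaged 50 or more counts and had 1 sign in all trees. Of the 6 rises 3 did not overlap between the dates, and of the 6 falls 1 did not. Over all tested features 117 of 30752 (0.38%) did not. The choice by size and sign on these libraries favours such separation, so these counts are descriptions only. The average of 50 counts could also be reached through 1 date alone. The rises went different ways afterwards, as 3 of the 6 had a higher median in June than in April and 1 a lower median in June than in March. All 6 falls had a lower median in June than in March. The last of the 6 rises differed far more between trees than between dates. Its level rose from 137 to 5141 CPM in tree 44 and from 798 to 872 CPM in tree 90 of the same family, whereas 7 of the other trees stayed under 3 CPM on both dates. Without the tree as a block its log2 change was 2.67 in place of 2.64 and the call was lost (edgeR adjusted p = 0.436). The change was smaller and the call also lost in the 5 trees from fc1025 to fc1022 (1.18, edgeR adjusted p = 0.117) and in the 8 trees before budbreak (1.65, edgeR adjusted p = 0.0124).

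The most abundant transcripts among these 1490 features moved less in fold than the 6 largest rises and falls, but much in amount. Over all called features the median log2 change was 0.74 for rises and -0.70 for falls. The 4 most abundant rises changed by 0.45 to 1.14 on the log2 scale and the 4 most abundant falls by -1.02 to -0.51, and their levels overlapped between the dates in each case. The most abundant rise was at 825 to 5689 CPM (median 3469) in March and 1605 to 16384 CPM (median 5253) in April, with a log2 change of 0.76 (s.e. 0.14, edgeR adjusted p = 0.000865). Its medians were higher again on the later dates, 12908 CPM in May and 20243 CPM in June. The other 3 abundant rises had lower medians in May and June than in March. The most abundant fall was at 3657 to 14702 CPM (median 8269) in March and 2603 to 8544 CPM (median 4591) in April, a log2 change of -0.90 (s.e. 0.14, edgeR adjusted p = 0.000198). Its median was 3675 CPM in May and 1307 CPM in June. None of these 8 calls was lost on leaving out 1 tree, but 7 were lost without the block, 8 in the 5 trees and 2 in the 6 trees of the opposite flowcell orders described further on. In the 5 trees the log2 changes were 0.42 to 1.28 for the rises and -0.91 to -0.36 for the falls, and without the block 0.46 to 1.19 and -1.06 to -0.50.

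Presence on 1 date alone was rare. No count in any March library and a count in at least 9 April libraries was found for 2 features, and the opposite for 1 feature. In the clearest case all 11 April libraries held 2 to 16 counts (median 7), while the 11 March, 11 May and 11 June libraries of the same trees held 0. A count of 0 allows up to 0.266 CPM in a library (3 counts, counting error only). Its median over the 22 libraries was too low for the test. In the other 2 features the highest counts were 6 and 2.

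Features called in the other 10 trees were followed in each tree left out, to describe the change in a tree outside the test. They also had to pass the count filter over all 22 libraries, in which the left-out tree took part. Some of the other trees shared the March and April lanes of the tree left out, so a lane difference could be in both. From 1440 to 1859 rises and from 1428 to 1951 falls were available per tree. The rises were higher in April than in March in the left-out tree by a mean of 0.54 (tree 69) to 0.99 (tree 46) on the log2 scale, with 0.78 ± 0.14 over the 11 trees (SD). The falls differed by -0.97 (tree 05) to -0.41 (tree 89), with -0.72 ± 0.16 over the 11 trees (SD). All 11 trees moved in the direction of the others for both lists. The share of single features that kept the direction was 78.8% to 96.3% for rises and 71.3% to 96.1% for falls, and it was lowest in tree 89 for both.

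As a share of counts, the rises took 3.34% to 6.67% (median 4.38%) of a left-out tree's counts in March and 5.96% to 9.89% (median 7.68%) in April. The falls took 12.0% to 19.9% (median 13.1%) in March and 6.71% to 16.0% (median 8.72%) in April. The falls thus held more of the counts than the rises in March in every tree. The share of the rises was 5.15% to 13.3% (median 6.57%) in May and 5.04% to 21.4% (median 7.86%) in June. It was higher in June than in April in 7 of 11 trees. Single abundant features weigh heavily in it, and the most abundant rise alone had medians of 5253 CPM in April and 20243 CPM in June. The share of the falls was lower in June than in April in 9 of 11 trees.

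The mean log2 level, in which abundant features weigh no more than others, took another course than the share of counts. In the left-out trees the rises were lower in May than in April by a mean of 0.41 on the log2 scale, in all 11 trees (differences of -0.56 to -0.21). They remained above March by 0.37 ± 0.18 in May and by 0.32 ± 0.19 in June (SD, n = 11), in 10 of 11 trees on each date. The exceptions were at -0.02 in May (tree 69) and at -0.001 in June (tree 08). The falls lay nearer to their April level. Their mean difference from April to May was 0.08, ranging from -0.24 to 0.33 with 7 of 11 trees above 0. Relative to March they were at -0.63 ± 0.21 in May and -0.67 ± 0.15 in June (SD, n = 11), below 0 in 11 of 11 trees. The difference between the courses of the lists was not tested. In fits of the later pairs of dates with the same tree block, 11190 of 29362 features (38.1%) changed from April to May. From May to June 4162 of 28233 (14.7%) changed, against 12.1% from March to April. All May and June libraries were on flowcell fc1025. The 5 trees on fc1022 in April thus changed flowcell from April to May, and none changed the other way. The dates were also unequally spaced, so these shares are not directly comparable.

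**Figure D3:**
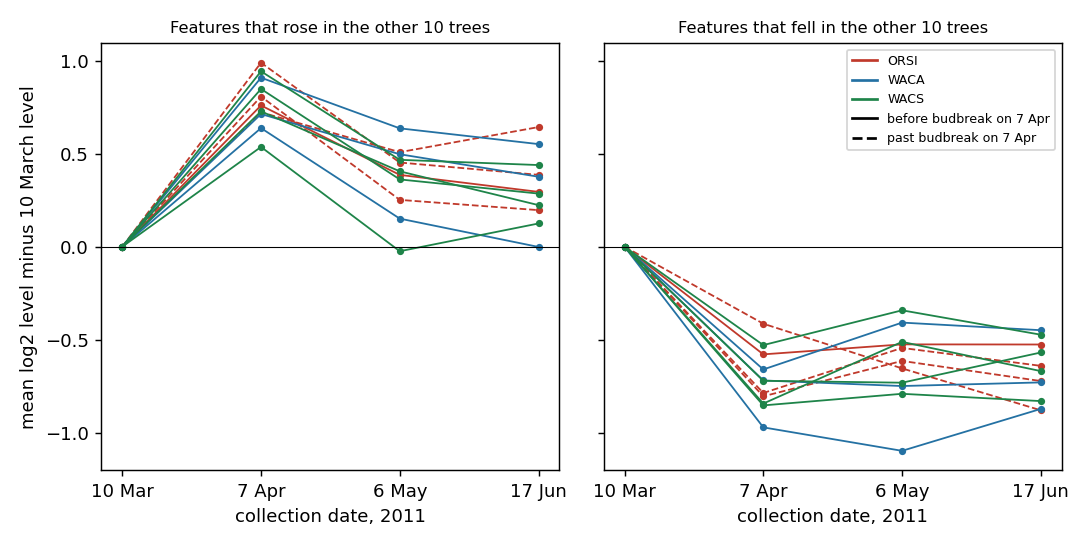
Mean log2 level relative to 10 March (vertical axis) on 4 dates, in each of the 11 trees, of features that rose (left) or fell (right) in the other 10 trees. Lines are coloured by seed source and dashed for the 3 trees past budbreak on 7 April. The mean log2 level of the rises, which weights all features alike, was highest on 7 April in all 11 trees, while the falls stayed between -1.10 and -0.34 in May and between -0.88 and -0.45 in June.

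The comparison within each seed source asked whether the trees of different origin changed alike. In 1 fit of all 22 libraries, 1028 features (3.34%) changed in ORSI, 137 (0.445%) in WACA and 454 (1.48%) in WACS at an FDR of 0.01 (edgeR, tree block). In ORSI 543 rose and 485 fell, in WACA 57 and 80, and in WACS 181 and 273. Called in all 3 sources were 91 of the 30752 features tested, and 0 were called in opposite directions in any pair of sources. The fitted changes were of similar size. For the 1871 features that rose over all trees the median log2 change was 0.79 in ORSI, 0.71 in WACA and 0.67 in WACS, and for the 1835 falls it was -0.70, -0.72 and -0.66. These features were chosen on the same libraries.

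The order of the counts differed between fits. With the libraries of a source fitted alone, 127 features changed in ORSI, 314 in WACA and 1571 in WACS, so the ORSI count was then the lowest. The changes of single trees had a median standard deviation of 0.52 on the log2 scale among the 4 ORSI trees, 0.35 among the 3 WACA trees and 0.32 among the 4 WACS trees. The fit of all libraries assigned 1 spread to all sources. A source fitted alone also had its own scaling, filter and degrees of freedom, and their separate effects were not tested. Leaving out 1 tree moved the ORSI count to between 305 (without tree 46) and 1231 (without tree 90), and to 649 without tree 44. It moved the WACA count to between 0 (without tree 39) and 342 (without tree 90), and it was 2 without 05, 19 without 08, 84 without 10 and 220 without 89. The WACS count lay between 86 (without tree 68) and 760 (without tree 90), and it was 92 without 12, 131 without 10 and 198 without 69. Without the block it was 91 in ORSI, 0 in WACA and 13 in WACS.

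**Figure D4:**
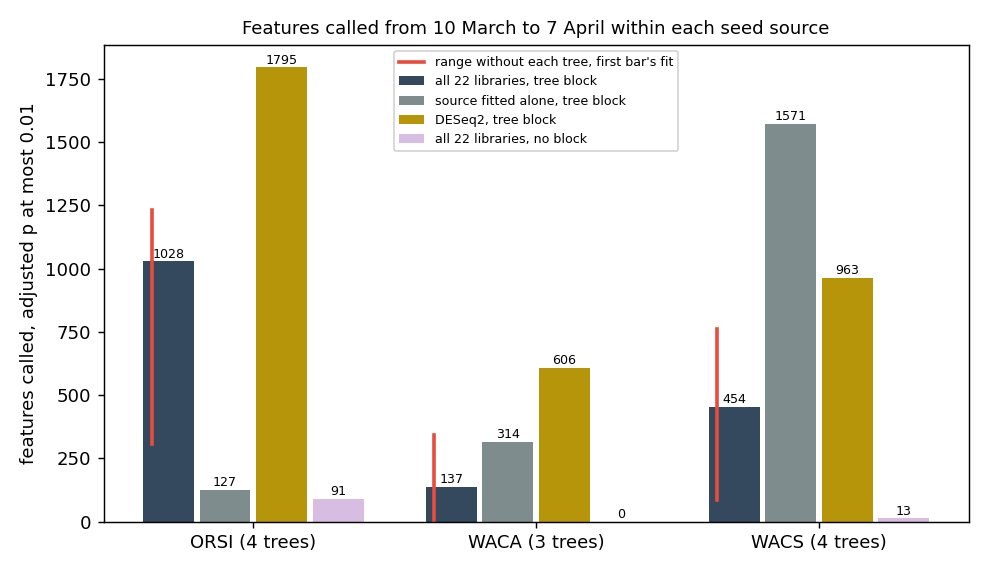
Number of features called at an FDR of 0.01 from 10 March to 7 April (vertical axis) in the 4 ORSI, 3 WACA and 4 WACS trees under 4 fits (bars), with the range on leaving out each of the 11 trees for the first fit (red line). ORSI has the highest count in the fit of all 22 libraries, 1028, and the lowest when each source is fitted alone, 127.

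No feature passed the test of a difference in the April change between the 3 seed sources (0 of 30752, or 0%, at an FDR of 0.01 in edgeR). An unadjusted p up to 0.05 was reached by 1941 (6.31%) and an FDR of 0.05 by 1 (0.00325%), and DESeq2 called 24. The feature with the smallest p had log2 changes of -1.86 in ORSI, -0.50 in WACA and -0.22 in WACS (edgeR adjusted p = 0.0475). The next pair, with an adjusted p of 0.0795 each, had positive changes in ORSI (1.25 and 0.81) and negative ones in both Washington sources. The values of the sources for these features are descriptions, since none passed.

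The trees past budbreak on 7 April could be compared with the trees before it, although all 3 of them were ORSI trees. No feature passed at an FDR of 0.01 (0%, edgeR), while 5039 (16.4%) had an unadjusted p up to 0.05 and 43 (0.14%) an FDR of 0.05. DESeq2 called 174, with 123 changing more positively and 51 more negatively in the trees past budbreak. Of the 43 features 30 changed more positively and 13 more negatively in the trees past budbreak, and the median size of their log2 difference was 1.42. The feature with the smallest p rose in all 11 trees, by 1.47 (s.e. 0.23) more on the log2 scale in the trees past budbreak (edgeR adjusted p = 0.0488). Its change was 2.01 to 2.98 in those 3 trees and 0.62 to 1.36 in the 8 trees before budbreak. The 1.36 was that of ORSI tree 90, and the Washington trees were at 0.62 to 1.29. Within ORSI, tree 90 alone was before budbreak, so budbreak states could not be compared there with replicates. When the 4 ORSI trees were set against the 7 Washington trees instead, 2 features passed and 3184 (10.4%) had an unadjusted p up to 0.05. That split was chosen after values had been seen. Budbreak state and seed source cannot be fully told apart with these trees.

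The size of the common change was also set side by side for the 2 budbreak states. In the left-out description above, the rises were at 0.72 to 0.99 in the trees past budbreak and at 0.54 to 0.94 in the 8 trees before it. The falls were at -0.80 to -0.41 and at -0.97 to -0.53. The ranges overlapped in both lists. Most trees used to call these lists were before budbreak, so a change tied to budbreak would be largely missed by them. The overlap therefore does not show that the states changed alike. In the 8 trees before budbreak alone, 3184 features changed from March to April, with 1560 up and 1624 down (edgeR, FDR 0.01). That fit had fewer trees and its own filter.

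Every tree changed flowcell between the dates, 6 trees from fc1022 to fc1025 and 5 from fc1025 to fc1022. The flowcell is therefore separable from the date, whereas each sequencing lane held 1 date, so that date and lane cannot be told apart. With the tree as a block, the flowcell term is also the difference in the April change between the 6 and the 5 trees. A flowcell effect and such a difference cannot be told apart. A fit with a flowcell term added called 3551 features from March to April. The flowcell term itself called 0 features (0%, edgeR, FDR 0.01), with 1395 (4.54%) at an unadjusted p up to 0.05, 4 (0.013%) at an FDR of 0.05 and 11 by DESeq2. It called 1 without tree 46, 89 or 90. The feature with the smallest p had a flowcell term, fc1025 minus fc1022, of -1.16 on the log2 scale (s.e. 0.15, edgeR adjusted p = 0.0127).

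The 6 and the 5 trees shared no library or lane, but each of the 5 trees has a tree of its own family among the 6, and tree 08 alone has none among the 5. In the 6 trees 1709 features changed and in the 5 trees 285. These fits had fewer trees than the main one and their own filters, so the counts are not directly comparable. Of the former, 1672 were also tested in the 5 trees, where 1647 (98.5%) had the same sign, against 72.1% of all 29624 features tested in both. The rises of the 6 trees had a median log2 change of 1.04 there and 0.81 in the 5 trees, and the falls -0.96 and -0.63. Of the 283 features called in the 5 trees and tested in the 6, all had the same sign there, which covers these fits alone, and 233 were called in both.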

How the data were processed

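RNA of needles of single trees was sequenced from strand-specific libraries. The authors deposited whole-number counts per feature in 1 table. CASAVA 1.8 and Bowtie2 are named in the submitters' processing notes. The counter, and the step by which all totals came to nearly 1 depth, were not given in the sources used here. Features with near-identical sequences may share reads. The 3 columns of tree 38 were not used, since the sources name different dates for it.

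The quasi-likelihood test of edgeR 4.0.16 in R 4.3.3 was applied after TMM scaling, with p-values adjusted by Benjamini and Hochberg's method and a threshold of 0.01. Features with a median count over 5 over the fitted libraries were kept, and the tree was a block. Differences between seed sources, budbreak states and flowcells were tested as terms of such fits. CPM are counts per 1000000 of the TMM-scaled library, and log2 CPM used a prior count of 2. March and April CPM were scaled over the 22 libraries, and May and June CPM over 44. Single values per library were tested by exact sign permutation over trees. The tests were checked on simulated data. The 30 pairs of libraries within a source and date differed by more than sampling noise (chi-square per degree of freedom at least 29.3).

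The trees are separate plants and served as replicates, and the pairing comes from the tree numbers in the labels. Deviations from the date means of the March and April libraries of 1 tree correlated at 0.39 to 0.73 across features in 11 of 11 trees. Those of sibling trees correlated at 0.08 on average (highest 0.32) and those of unrelated trees at -0.08. Taking deviations from the date means pulls the values between different trees below 0, so -0.08 is no independent baseline.

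Features were chosen by rule: among called features that averaged 50 or more counts and had 1 sign in all 11 trees, the 6 largest changes, the 4 most abundant and the 4 of smallest p in each direction, and the 3 of smallest p in each test of a difference. The average was taken over both dates, so the libraries of 1 date alone could reach it. Identifiers are printed for 2 rises and 2 falls. The comparison, rules and alternatives were chosen with earlier results of these data known. Alternatives were DESeq2 1.42.0, other scalings, filters and thresholds, no block, the flowcell as a covariate, subsets of trees, counts added up per family and leaving out each tree.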

Additional observations from a re-analysis of the deposited data

Results flagged for a closer look

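Single trees were compared with the others of their seed source in 64 groups of 4 values (the changes of the 26 features chosen in the main comparison, the library measures and the left-out changes, in ORSI and in WACS). In 2 groups 1 tree lay apart by Dixon's criterion, where chance alone gives about 1 in 20 groups. For 1 of the 6 largest rises, the log2 change was 1.57 in tree 90 and 3.99 to 4.44 in the other ORSI trees. That feature was at 4.27 CPM in March in tree 90, against 0.271 to 2.25 CPM in the other ORSI trees, and at 13.0 CPM in April. For 1 of the 4 most abundant falls, the log2 change was -1.03 in tree 68 and -0.40 to -0.31 in the other WACS trees.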

How the results depend on the processing

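The trees paired the samples. With no block, 828 features (487 up, 341 down) were called from March to April in place of 3706, and 91, 0 and 13 in ORSI, WACA and WACS. At an FDR of 0.05 the counts were 6898 over all trees, 2794 in ORSI, 736 in WACA, 1388 in WACS, 1 for the difference between sources, 43 for budbreak and 4 for the flowcell. A log2 change of at least 1 as well left 1073. The 6 trees from fc1022 to fc1025 gave 1709 and the 5 trees in the opposite order 285, with fewer trees. DESeq2 gave 1795, 606 and 963 in ORSI, WACA and WACS, 24 for the difference between sources, 174 for budbreak and 11 for the flowcell. Sources fitted alone gave 127, 314 and 1571, and ORSI against Washington in place of budbreak, chosen after seeing the data, gave 2. The other 9 settings of the main count moved it by less than 1.5 times. These were DESeq2 (4569), size factors by relative log expression (3710), library totals alone (3336, with 1834 up and 1502 down), no filter (5386), edgeR's own filter (3526), the flowcell as a covariate (3551), counts per family (2829), trees before budbreak (3184) and no top 50 features (3701). Leaving out each tree gave 2876 (without tree 12) to 3830 (without tree 89) over all trees, 305 to 1231 in ORSI, 0 to 342 in WACA, 86 to 760 in WACS, 0 for sources, 0 for budbreak and 0 to 1 for the flowcell. The difference in detected features was -320 in the 6 trees and -298 to 861 without each tree (-298 without tree 90). The share of the top 50 rose by 1.43 to 2.66 percentage points without each tree, and that of the top 10 by 2.35. The causes were not tested. Of the 26 features chosen in the main comparison, 14 kept the call in every setting run, 23 of their 591 values lost it and 0 reversed. Totals were nearly equal, but TMM factors of 0.808 to 1.18 and top 50 shares of 14.9% to 28.5% leave the precision for the other features unequal.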
